A study of Mus musculus with 8 samples.

Results

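The genes described here are 33 mouse genes that attach amino acids to transfer RNA, carry amino acids across the cell membrane, or make serine, folate-bound carbon units and proline. They were 20 genes of cytosolic aminoacyl-tRNA synthetases, 6 transporter genes, 3 genes of serine synthesis, 2 of the mitochondrial folate pathway and 2 of proline synthesis. The genes were listed by name, with earlier results of these data known, and each was read from the brightest of the probes whose transcript maps to it. A probe was found for 32 of the 33, and all 32 were among the 22460 genes tested. Pycr1, a reductase of proline synthesis, was matched to no probe and is not analysed here.

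The cells were BV-2, mouse microglia made into a permanent line by a retrovirus carrying v-raf and v-myc. The study asked how a hexane fraction (HF) made from the polypore Amauroderma rugosum modulates microglia stimulated with bacterial lipopolysaccharide (LPS). The 4 groups, each of 2 one-colour arrays, were cells given 1 µg/mL LPS and 100 µg/mL HF together (LPS+HF), 1 µg/mL LPS alone (LPS), 100 µg/mL HF alone (HF), and neither agent (control), all for 24 hours. All groups grew in the same medium, which held added insulin and non-essential amino acids. The design text calls the arrays of a group biological duplicates. Whether they came from separate passages is not stated, and the p-values measure only the spread between these arrays. Of 12 marker genes of microglia and macrophages, 10 were well above background on all 8 arrays, while P2ry12 was so on 5 and Cx3cr1 on 6. Among markers of other brain cells, Slc1a2, Gja1, Syt1, Stmn2 and Olig2 were well above background on no array, whereas Aldoc and Snap25 were on all 8.

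Aminoacyl-tRNA synthetases couple each amino acid to its transfer RNA, which the ribosome then uses to build protein. When amino acids run short or the endoplasmic reticulum is stressed, kinases phosphorylate the initiation factor eIF2α, general translation slows, and the transcription factor ATF4 is made. ATF4 is known to drive many synthetase, transporter and serine synthesis genes through C/EBP-ATF response elements, and macrophages activated with LPS are known to draw on serine.

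Promoters of 24 of the 33 genes were found in RefSeq (GRCm38.p6), each from 250 bases before to 50 after the transcription start. The core of the C/EBP-ATF response element, TGATGNAA on either strand, was present in 7 of the 24 (29.2%), in 4.51% of all genes with a promoter and in 3.97% of all promoters. The genes with the core were Aars, Gars, Iars, Tars, Yars, Slc1a4 and Pycr1, and stretches of the 6 measured ones are shown because their values in the cells differed in direction. The E-box CACGTG, which reads the same on both strands and overlaps no core in these genes, was in 5 of the 24 (20.8%) and in 8.09% of all genes. A match describes the letters and is not a site. The stretches run 5′ to 3′ on the gene's strand, with matches in capitals.
Aars, chr8:111033682-111033771, plus strand: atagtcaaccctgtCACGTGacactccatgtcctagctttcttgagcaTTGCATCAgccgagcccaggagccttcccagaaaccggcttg
Yars, chr4:129189895-129189924, plus strand: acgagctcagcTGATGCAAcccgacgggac
Tars, chr15:11399659-11399718, minus strand: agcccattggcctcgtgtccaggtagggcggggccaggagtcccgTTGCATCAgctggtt
Iars, chr13:49682125-49682154, plus strand: gcactgtcagtaTTGCATCAcctccagacg
Gars, chr6:55037941-55038000, plus strand: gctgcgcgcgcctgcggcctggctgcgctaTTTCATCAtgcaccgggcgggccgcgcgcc
Slc1a4, chr11:20332699-20332728, minus strand: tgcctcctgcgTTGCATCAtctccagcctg

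In cells with LPS, the difference made by HF was not shared by these 6 genes: the LPS+HF minus LPS difference was -0.88 for Aars, -0.26 for Gars, -0.15 for Slc1a4, 0.05 for Iars, 0.07 for Tars and 0.63 for Yars on the log2 scale. Of these, the difference of Aars passed the test. The E-box was found in the promoters of Aars, Iars and Tars, and lies outside the stretches shown for Iars and Tars. Aars also has a second match to the core, at bases 10 to 17 after the start, outside the stretch shown.

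Levels are log2 intensities relative to the 75th percentile of the same array, so 0 means a spot as bright as that percentile. They can be compared between arrays for a probe, but not between probes. Of the 32 genes, 31 were well above background on all 8 arrays, the exception being Hars on control replicate 1, and no spot was saturated. The 75th percentile lay at 347 to 527 intensity units on the 4 arrays with HF, and at 247 to 286 on the 4 without. All arrays shared 1 slide, those with HF in row 2 and those with LPS in columns 3 and 4, so slide position cannot be told apart from treatment. The scanner software marked control replicate 1 and HF replicate 1 for evaluation, and the first was uneven across its surface. The replicate difference had an SD over all genes of 0.344 for LPS+HF, 0.276 for LPS, 0.518 for HF and 0.993 for control.

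This unevenness reached the genes described here. The 2 control arrays differed by over 1 on the log2 scale in 9 of the 32 genes, with a median absolute difference of 0.64, against 0.07 for LPS+HF, 0.06 for LPS and 0.07 for HF. On control replicate 1 the spots of Farsa, Hars, Lars, Qars, Slc3a2 and Slc1a5 lay in dimmed areas, as did that of Hars on HF replicate 1. A spatial correction, which subtracts the local deviation of the array around a spot, reduced the median absolute difference of the controls to 0.12. It also masks spots whose surroundings were dimmed over 4-fold in the scanner software's background-subtracted signal, before its later adjustment. For the 6 masked genes that deviation lay between -6.23 (Hars) and -2.24 (Slc1a5) on the log2 scale, and in the processed signal used here between -2.53 and -0.56. Counts of genes that passed are therefore given from all arrays as deposited and also after the spatial correction or without control replicate 1.

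**Figure D1:**
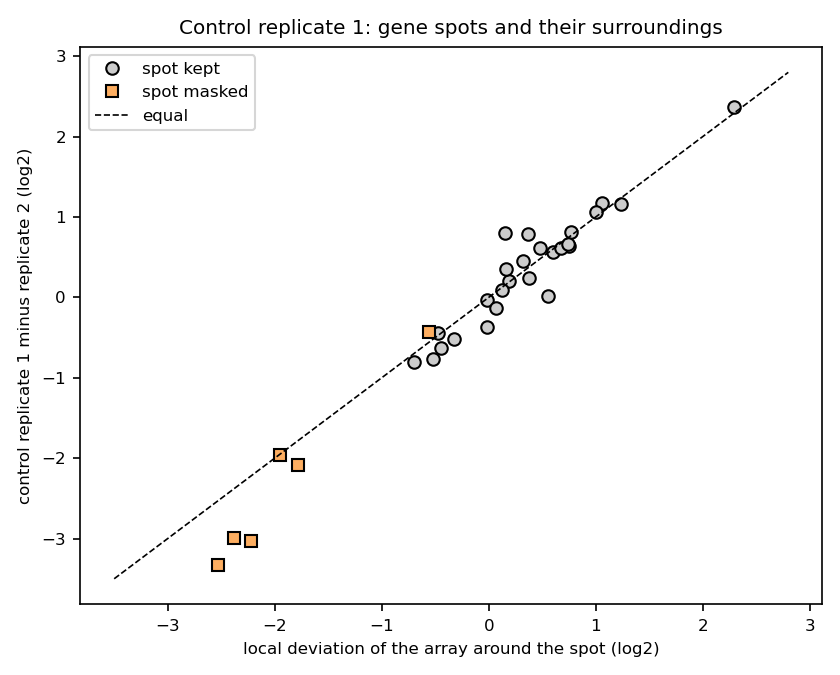
Deviation of control replicate 1 around the spot of each of the 32 genes (x axis, log2) against the difference of the gene's level, control replicate 1 minus replicate 2 (y axis, log2). Squares are the 6 masked spots, and the dashed line marks equal values. Points run broadly along the line, with differences from -3.33 for Hars to 2.37 for Shmt2, but some lie off it. The deviation and the difference were 0.15 and 0.80 for Mthfd2, and 0.55 and 0.01 for Vars. The gap between the control arrays thus went in large part, but not wholly, with the place of the spot.

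Among the synthetases, Aars, Wars and Vars passed the test in at least 1 comparison. Aars, the alanine enzyme, had levels of 4.77 and 4.85 in LPS+HF cells, 5.71 and 5.67 in LPS cells, 4.08 and 4.12 in HF cells, and 4.48 and 4.27 in control cells. Both LPS arrays lay above every other array, and both LPS+HF arrays lay between them and the rest. Wars, the tryptophan enzyme and a gene known to respond to interferon, had 5.09 and 5.02 in LPS+HF cells, 5.74 and 5.75 in LPS cells, 4.74 and 4.93 in HF cells, and 5.21 and 4.96 in control cells. Again the LPS arrays stood highest, and the LPS+HF arrays lay within the range of the controls. A second Wars probe gave 0.76 and 0.96 in LPS+HF cells, 1.63 and 1.65 in LPS cells, 0.67 and 0.91 in HF cells, and 0.55 and 0.88 in control cells, again with LPS highest.

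Vars, the valine enzyme, ran the other way. Its levels were 3.37 and 3.36 in LPS+HF cells, 2.51 and 2.45 in LPS cells, 3.35 and 3.33 in HF cells, and 3.11 and 3.09 in control cells, so the LPS arrays were lowest. Yars, the tyrosine enzyme, had levels of -1.34 and -1.30 in LPS+HF cells, -1.88 and -2.02 in LPS cells, -1.69 and -1.68 in HF cells, and -2.02 and -1.58 in control cells. Its LPS+HF arrays were higher than all others, while the control arrays overlapped the LPS ones. Cars, the cysteine enzyme, had 5.09 and 5.00 in LPS+HF cells, 5.42 and 5.44 in LPS cells, 4.52 and 4.48 in HF cells, and 6.18 and 5.01 in control cells, where control replicate 1 stood alone.

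Of the transporters, Slc38a2, which takes up small neutral amino acids with sodium, separated the arrays most clearly with HF. Its levels were 4.64 and 4.61 in LPS+HF cells, 3.39 and 3.47 in LPS cells, 4.46 and 4.68 in HF cells, and 3.39 and 4.20 in control cells. All 4 arrays with HF lay above all 4 without. Slc3a2, the heavy chain shared by several exchangers, had 5.85 and 5.91 in LPS+HF cells, 6.02 and 5.99 in LPS cells, 5.17 and 5.44 in HF cells, and 2.31 and 5.33 in control cells. The low control value is one of the masked spots. Slc7a5, the light chain that carries large neutral amino acids, had 1.39 and 1.49 in LPS+HF cells, 0.78 and 1.03 in LPS cells, 1.60 and 1.47 in HF cells, and 2.01 and 1.20 in control cells. A second Slc7a5 probe opposed it, with -0.54 and -0.51 in LPS+HF cells, 0.06 and -0.17 in LPS cells, -0.32 and -0.58 in HF cells, and -0.78 and -0.23 in control cells, so no direction is given for this gene.

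Serine is made from a glycolytic intermediate by PHGDH, PSAT1 and PSPH in turn. Psph, the phosphatase of the last step, had levels of 2.48 and 2.50 in LPS+HF cells, 2.99 and 2.94 in LPS cells, 2.15 and 2.23 in HF cells, and 2.92 and 2.82 in control cells. All 4 arrays with HF lay below all 4 without. A second Psph probe showed the same separation, with 0.65 and 0.61 in LPS+HF cells, 1.10 and 1.03 in LPS cells, 0.15 and 0.37 in HF cells, and 0.99 and 1.05 in control cells. Psat1, the aminotransferase, had 6.05 and 6.13 in LPS+HF cells, 6.28 and 6.26 in LPS cells, 6.14 and 6.13 in HF cells, and 7.29 and 6.63 in control cells. Phgdh, the dehydrogenase of the first step, had 6.47 and 6.61 in LPS+HF cells, 6.52 and 6.38 in LPS cells, 6.39 and 6.54 in HF cells, and 6.39 and 6.91 in control cells. On this probe the arrays overlapped in every pair of groups compared. A second Phgdh probe gave 6.20 and 6.35 in LPS+HF cells and 6.21 and 6.16 in LPS cells. It gave 6.08 and 6.25 in HF cells, and 6.39 and 6.55 in control cells. There both LPS arrays and both HF arrays lay below both control arrays.

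In the mitochondrial folate pathway, Mthfd2, the dehydrogenase and cyclohydrolase, had levels of 2.86 and 2.89 in LPS+HF cells, 3.49 and 3.41 in LPS cells, 1.93 and 1.96 in HF cells, and 3.36 and 2.56 in control cells. The HF arrays were lowest. Shmt2, which passes a carbon unit of serine to folate, had 4.66 and 4.90 in LPS+HF cells, 4.29 and 4.31 in LPS cells, 4.62 and 4.60 in HF cells, and 7.02 and 4.64 in control cells. The value of control replicate 1 set it apart from all other arrays. Aldh18a1, which begins proline synthesis from glutamate, had 2.08 and 2.03 in LPS+HF cells, 1.94 and 2.09 in LPS cells, 1.34 and 1.75 in HF cells, and 1.96 and 1.61 in control cells, with all HF values below those of LPS+HF.

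**Figure D2:**
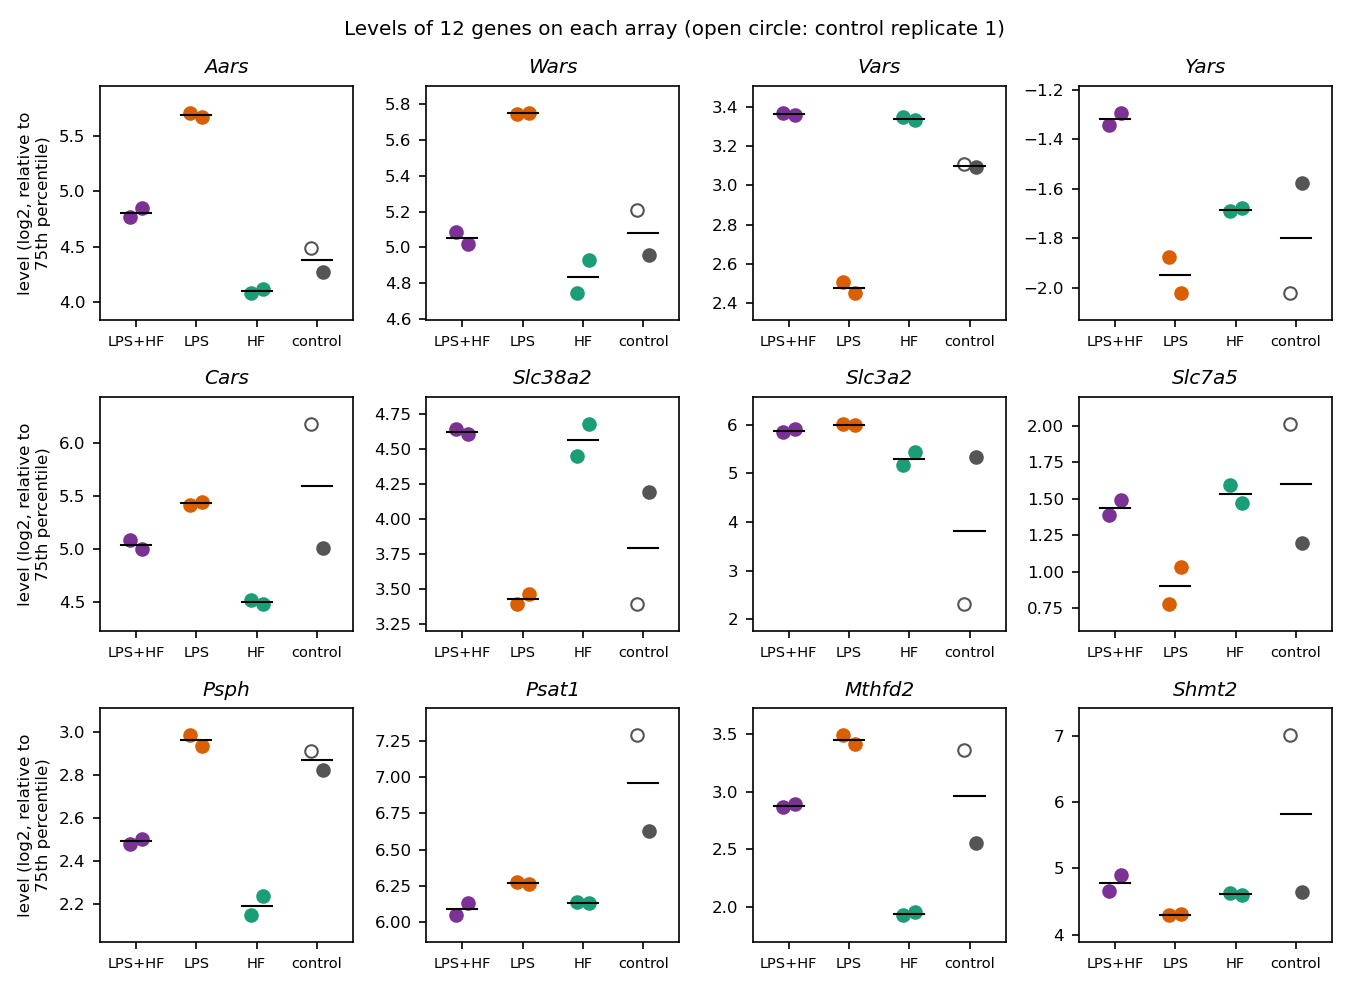
Level of 12 of the 32 genes on each array (y axis, log2 relative to the array's 75th percentile) in LPS+HF, LPS, HF and control cells. Each circle is 1 array, bars are means of 2 arrays, the open circle is control replicate 1, and each panel has its own scale. Aars and Wars were highest and Vars lowest on the LPS arrays, and Slc38a2 was higher on every array with HF than on any without.

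Adding HF to LPS lowered Aars and raised Vars. Aars fell 1.84-fold in LPS+HF cells against LPS cells (log2 -0.88 ± 0.14, SE of the fit, n = 2 arrays each, limma with Benjamini-Hochberg over all genes, adjusted p = 0.0261). Vars rose 1.84-fold (log2 0.88 ± 0.12, adjusted p = 0.0204). In RNA from a whole culture, a change of RNA per cell and a change in the share of cells with the RNA cannot be told apart. These 2 of 32 genes (6.25%) stood against 6.14% of all genes called in this comparison, so the share was near that of the whole array. The median difference over the 32 genes was 0.04, and over all genes -0.07. By role, 2 of 20 synthetases passed, and none of 6 transporters, 3 serine genes, 2 mitochondrial folate genes and the 1 proline gene.

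The groups did not overlap in 26 of the 32 genes, 13 with LPS+HF higher and 13 with it lower, where 73.9% of all genes showed no overlap, 32.6% higher and 41.3% lower. Without passing, Slc38a2 had a difference of 1.20 ± 0.27 (adjusted p = 0.0592), Wars of -0.69 ± 0.15 (adjusted p = 0.0548), Psph of -0.47 ± 0.13 (adjusted p = 0.0896) and Yars of 0.63 ± 0.18 (adjusted p = 0.103). These genes, and all others named beside Aars, Vars and Wars, were chosen after their values were seen. The second Wars probe differed by -0.78 and the second Psph probe by -0.44, while the second Slc7a5 probe differed by -0.47, against 0.54 for its first. Of the 7 genes with 2 probes, 6 had both probes on the same side. The remaining synthetases lay between -0.39 for Cars and 0.42 for Lars.

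Control arrays do not enter this difference, but they enter the spread shared by all groups. Without control replicate 1 the differences were the same and 11 of the 32 genes passed, 6 higher and 5 lower, as did 29.1% of all genes. Kars, Vars, Yars, Slc38a2, Shmt2 and the first probe of Slc7a5 were then higher, and Aars, Cars, Wars, Psph and Mthfd2 lower. For Slc38a2 the adjusted p was then 0.00492 and for Wars 0.0108. After the spatial correction 11 passed too, against 29.3% of all genes, and 10 genes were in both sets, Rars taking the place of Mthfd2. Fitted on the 4 arrays compared alone, 12 passed, against 32.9% of all genes. Without LPS replicate 1, and likewise without LPS replicate 2, none of the 32 and none of the 22460 genes passed, so each of the LPS arrays was needed for these calls. The calls on Aars and Vars were also lost when either HF array or either LPS+HF array was left out, although some other genes then passed.

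LPS alone raised Aars and Wars, and Vars was lower. Aars rose 2.48-fold in LPS cells against control cells (log2 1.31 ± 0.14, n = 2 each, limma adjusted p = 0.0057). Wars rose 1.58-fold (log2 0.66 ± 0.15, adjusted p = 0.0456), and its second probe differed by 0.93. Vars fell 1.54-fold (log2 -0.62 ± 0.12, adjusted p = 0.0311). The call on Vars did not pass after the spatial correction (log2 -0.28, adjusted p = 0.326) and its difference was 0.19 with the normexp background correction. On control replicate 1 the Vars spot lay in an area that deviated by 0.55, although its own level differed from that of control replicate 2 by only 0.01. This comparison shares the LPS arrays with the one before it, so the values of Aars, Wars and Vars in both are not independent.

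The 3 of 32 genes that passed (9.38%) stood against 11.1% of all genes. The groups did not overlap in 15 of the 32, 7 with LPS higher and 8 lower, against 57.1% of all genes, 24.1% higher and 33% lower. The median difference was -0.04 over the 32 genes and -0.08 over all genes. Dars, the aspartate enzyme, had a difference of -0.57 ± 0.17 (adjusted p = 0.0919) and Iars, the isoleucine enzyme, of 0.41 ± 0.13 (adjusted p = 0.104). Psat1 had -0.69 ± 0.23 (adjusted p = 0.111), but its second probe differed by 0.24. For Slc3a2 the difference was 2.18 ± 0.88 (adjusted p = 0.165), and for Shmt2 -1.53 ± 0.70 (adjusted p = 0.204), both set by control replicate 1. Of the 7 genes with 2 probes, 3 had both probes on the same side.

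After the spatial correction, 12 of the 32 genes passed, 7 higher and 5 lower, against 29.5% of all genes. Higher were Aars, Cars, Iars, Rars, Tars and Wars among the synthetases, and Slc3a2. Lower were Dars, Yars, Slc38a2, Psat1 and Shmt2. Slc3a2 then had a difference of 0.68, which rests on control replicate 2 alone because its spot on control replicate 1 was masked. Slc38a2 had a difference of -0.69 (adjusted p = 0.00466) and Shmt2 of -0.46 (adjusted p = 0.0237). Without control replicate 1, 8 passed, against 20.3% of all genes, and 6 of them had also passed after the correction. Mthfd2 was among the 8, with a difference of 0.89 (adjusted p = 0.00817), and Vars was as well, at -0.61 (adjusted p = 0.0168). Cars changed sides, with -0.16 on all arrays, 0.40 after the correction and 0.42 without control replicate 1. With only the LPS and control arrays in the fit, no gene of the 32 passed, against 0.294% of all genes. The calls on Aars, Wars and Vars were lost without LPS replicate 1 or 2. Those on Wars and Vars, but not that on Aars, were also lost when any HF or LPS+HF array was left out. Each of these fits leaves 1 array in a group. Without control replicate 2, 20 of the 32 passed, against 52.6% of all genes, with the uneven array as the only control.

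**Figure D3:**
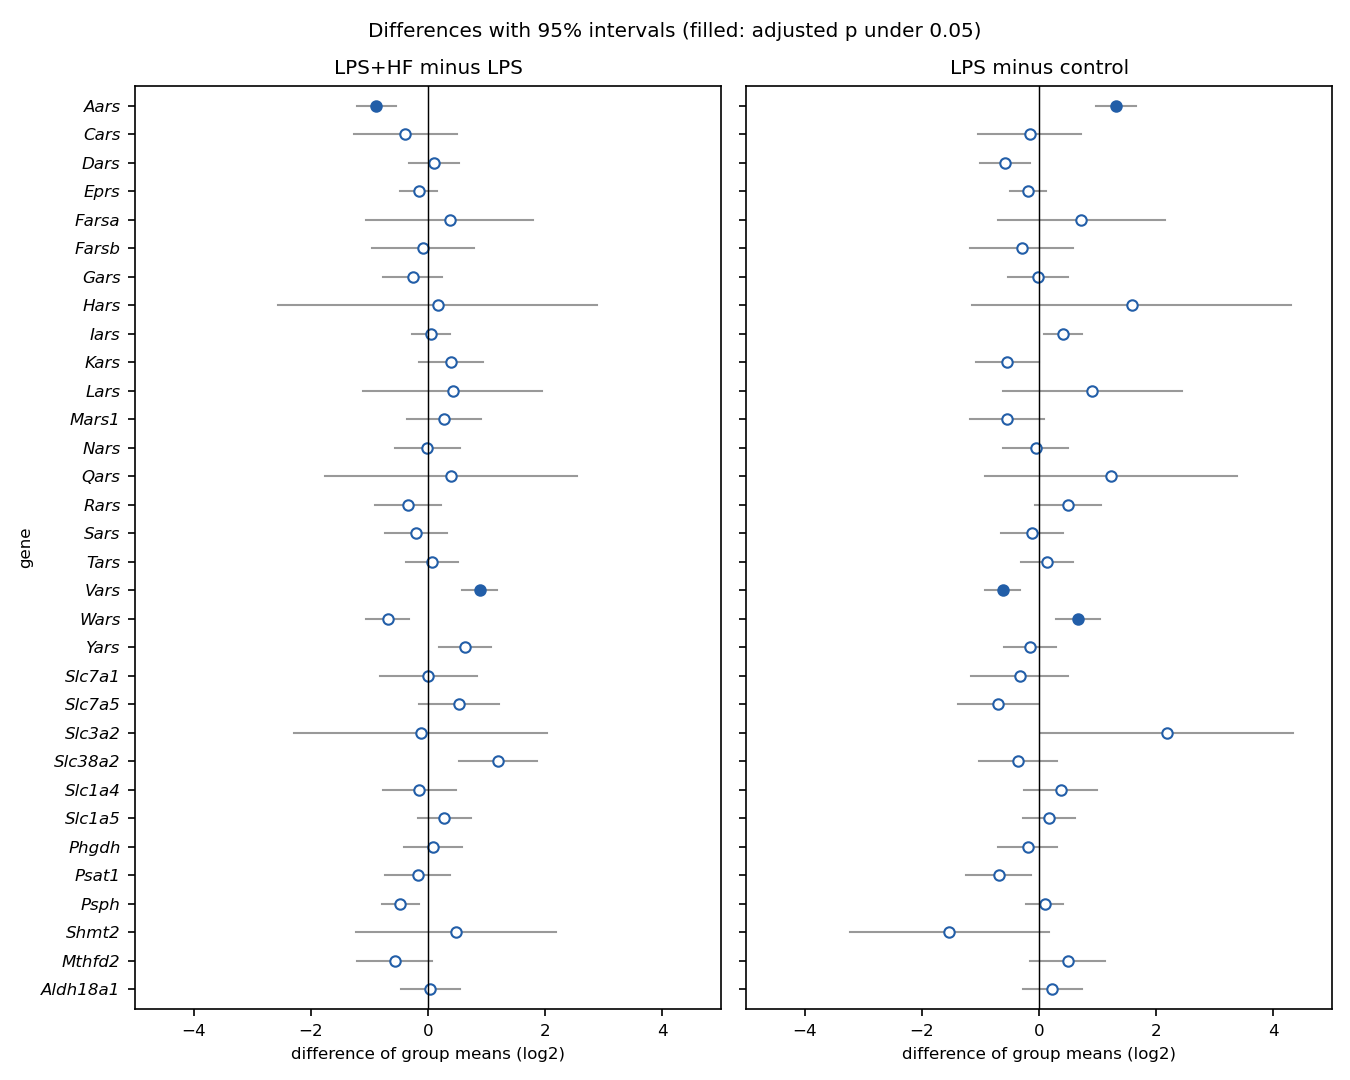
Difference of group means with its 95% interval from limma (x axis, log2) for each of the 32 genes (y axis), LPS+HF minus LPS on the left and LPS minus control on the right. Filled circles had an adjusted p under 0.05. Aars and Vars are filled on both sides and lie on opposite sides of 0, Wars is filled on the right alone, and the 3 widest intervals are those of Hars, Slc3a2 and Qars, which were masked on control replicate 1, followed by that of Shmt2, which was not.

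HF alone brought no gene of the 32 past the limma threshold against control cells, where 0.89% of all genes passed. Psph, Mthfd2 and Psat1 had the lowest unadjusted limma p-values of the 32, while those of Phgdh and Shmt2 were 0.397 and 0.132. Psph differed by -0.68 ± 0.13 (adjusted p = 0.0897) and its second probe by -0.76. Psat1 differed by -0.82 ± 0.23 (adjusted p = 0.159), but its second probe by only -0.18. Mthfd2 differed by -1.01 ± 0.26 (adjusted p = 0.147). Cars differed by -1.09 ± 0.36 (adjusted p = 0.196) and Slc38a2 by 0.77 ± 0.27 (adjusted p = 0.213). The groups did not overlap in 17 of the 32 genes, 5 with HF higher and 12 lower, against 46.2% of all genes, 20.4% higher and 25.8% lower. The median was -0.20 over the 32 genes and -0.07 over all genes. After the spatial correction 5 passed, against 10.8% of all genes. They were Psph (-0.62, adjusted p = 0.0163), Psat1 (-0.42), Mthfd2 (-0.97), Cars (-0.51) and Slc38a2 (0.49). Without control replicate 1 none passed, against 2.25% of all genes, and 8 had an unadjusted p under 0.05, with Psph at -0.64 (adjusted p = 0.0572). With only the HF and control arrays in the fit, none of the 32 passed, and neither did any other gene (0.0%).

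When LPS was added to HF, no gene of the 32 passed either, against 1.28% of all genes. The 3 lowest unadjusted p-values of the 32 were those of Aars, Mthfd2 and Aldh18a1. Aars differed by 0.71 ± 0.14 (adjusted p = 0.101), Mthfd2 by 0.93 ± 0.26 (adjusted p = 0.265) and Aldh18a1 by 0.51 ± 0.20 (adjusted p = 0.513). The groups did not overlap in 21 of the 32 genes, 18 with LPS+HF higher and 3 lower, against 53.2% of all genes, 18.2% higher and 34.9% lower. The median was 0.17 over the 32 genes and -0.08 over all genes. Aars, Cars, Tars and Mthfd2 passed after the spatial correction, all 4 higher in LPS+HF cells, against 4.83% of all genes, 3.07% higher. Aars, Cars and Mthfd2 passed without control replicate 1, against 3.94% of all genes, 2.44% higher. Fitted on the LPS+HF and HF arrays alone, Mthfd2 passed (adjusted p = 0.046), against 1.44% of all genes.

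Whether the difference made by LPS changed with HF was tested as an interaction, LPS+HF minus HF less LPS minus control. None of the 32 genes passed the limma threshold, against 0.0534% of all genes. Vars and Aars had the lowest unadjusted p-values of the 32. The interaction of Aars was -0.60 ± 0.20 (adjusted p = 0.343) and that of Vars 0.64 ± 0.17 (adjusted p = 0.281). Yars had 0.52 ± 0.26 (adjusted p = 0.512). After the spatial correction Yars passed (0.70, adjusted p = 0.0487), against 3.41% of all genes, and Slc38a2 had 0.73 (adjusted p = 0.0519). Without control replicate 1, which leaves 1 control array, the call on Yars was not kept.

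Related genes outside the 33 were read from 6 lists. These lists, like the 33 genes, were drawn up with earlier results of these data known. In LPS+HF against LPS cells, 4 of 16 mitochondrial synthetase genes rose and none fell, with a list median of 0.37, where 2.89% of all genes rose. With quantile normalization 2 of the 16 passed, where 517 of the 22460 genes rose. With median scaling none of the 16 did, where 88 of all genes rose. Among the 4 were Lars2 (log2 1.03 ± 0.21, adjusted p = 0.0467), Vars2 (0.97) and Mars2 (0.76), for leucine, valine and methionine. Lars2 had 2.63 and 2.59 in LPS+HF cells, against 1.54 and 1.62 in LPS cells, with no overlap. In LPS against control cells the list median was -0.53, and 1 of the 16 fell, where 6.3% of all genes fell, and the other 15 did not pass. Of 8 genes for the scaffold of the multisynthetase complex and for editing, Ptrh2, a mitochondrial peptidyl-tRNA hydrolase, rose 2.14-fold with HF added to LPS and Prorsd1 fell 1.70-fold. In LPS against control cells Aimp2, a scaffold protein of the complex, fell (-1.45) and so did Ptrh2 (-0.96).

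Of 17 other amino acid transporters tested, 5 rose in LPS against control cells and none fell, with a list median of 0.51, where 4.77% of all genes rose. Slc7a11, the light chain that pairs with Slc3a2 to exchange cystine for glutamate, rose 15-fold (log2 3.90 ± 0.17, adjusted p = 0.000435). Its levels were 0.49 and 0.48 in LPS+HF cells, 0.53 and 0.71 in LPS cells, -3.56 and -3.80 in HF cells, and -3.41 and -3.15 in control cells. All 4 arrays with LPS lay above all 4 without, and its LPS+HF minus HF difference was 4.17. Slc15a3, a lysosomal histidine and peptide carrier (2.55), Slc6a9, a glycine carrier (2.29), and Slc43a2, a large neutral amino acid carrier (0.90), rose as well. Slc43a2 fell when HF was added to LPS (-1.25 ± 0.14, adjusted p = 0.0129), with 2.65 and 2.50 in LPS+HF cells, against 3.78 and 3.86 in LPS cells. The other 16 transporter genes did not pass in that comparison, and the list median was -0.38.

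Among 16 further enzymes of serine, glycine and folate metabolism, none passed in LPS+HF against LPS cells (median 0.33), where 6.14% of all genes did. Gldc, of the glycine cleavage system, fell in LPS against control cells (-1.41), as did Mthfd1l, of mitochondrial folate (-0.76). Of 14 genes of other amino acid synthesis, 1 rose and 1 fell with HF added to LPS (median -0.12), where 2.89% of all genes rose and 3.25% fell. In LPS against control cells 2 rose and 1 fell (median 0.24), where 4.77% of all genes rose and 6.3% fell. Ass1, which joins citrulline and aspartate in arginine recycling, fell with HF added to LPS (-1.19) and rose with LPS alone (1.54). Asns, the asparagine synthetase, rose with LPS (0.57, adjusted p = 0.0469).

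Among 14 regulators of the amino acid stress response, 3 fell in LPS+HF against LPS cells (median -0.29, with 3.25% of all genes lower), and 6 rose and 1 fell in LPS against control cells (median 0.71, with 4.77% of all genes higher and 6.3% lower). Ddit3, the transcription factor CHOP, had 0.82 and 0.34 in LPS+HF cells, 4.36 and 4.26 in LPS cells, 0.21 and 0.17 in HF cells, and 0.91 and 0.49 in control cells. The LPS arrays stood far above all others. Trib3, a pseudokinase, had 3.94 and 3.78 in LPS+HF cells, 6.13 and 6.11 in LPS cells, 2.58 and 2.76 in HF cells, and 4.05 and 3.92 in control cells. Nupr1, a stress-induced chromatin protein, also fell with HF added (-1.01 ± 0.18, adjusted p = 0.0358). Atf4 itself, a factor controlled largely at translation, had 7.86 and 7.83 in LPS+HF cells, 8.50 and 8.59 in LPS cells, 7.57 and 7.37 in HF cells, and 8.76 and 7.93 in control cells, and did not pass in either comparison. Myc, not well above background in control or HF cells, rose at least 3.87-fold in LPS against control cells and at least 8.39-fold in LPS+HF against HF cells. Such a bound sets the bright group against each dim array's own value or its lowest signal well above background, whichever is higher. Of the 14 regulators, 2 fell and none rose with HF alone against control cells (median -0.46), where 0.89% of all genes passed. In LPS+HF against HF cells 4 rose and none fell (median 0.38), where 1.28% of all genes passed. With median scaling, none of the 14 passed with HF alone, where 12 of the 22460 genes rose and 25 fell. In that setting 2 of the 14 rose in LPS+HF against HF cells, where 128 of all genes rose.

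The counts of the related lists also moved when control replicate 1 was corrected or left out. In LPS+HF against LPS cells, 15.2% of all genes were then higher and 14.1% lower after the spatial correction, and 14.9% higher and 14.3% lower without control replicate 1. The mitochondrial synthetases had 9 higher and 1 lower in either setting. The further enzymes of serine, glycine and folate metabolism had 6 higher and 1 lower after the correction, and 6 higher and none lower without the array. The other transporters had 1 higher and 7 lower after the correction, and 1 higher and 8 lower without the array. The regulators had 1 higher and 7 lower, and 2 higher and 7 lower, in the same order. For other amino acid synthesis there were 3 higher and 5 lower, and 3 higher and 4 lower. The scaffold and editing genes had 3 higher and 1 lower in either setting.

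In LPS against control cells, 13.2% of all genes were higher and 16.3% lower after the spatial correction, and 8.78% higher and 11.5% lower without control replicate 1. Of the mitochondrial synthetases, 1 was higher and 10 were lower after the correction, and 6 were lower without the array. The further enzymes of serine, glycine and folate metabolism had 2 higher and 5 lower after the correction, and 3 lower without the array. The other transporters had 8 higher and 1 lower, and 8 higher and none lower, in the same order. The regulators had 9 higher and 2 lower in either setting. For other amino acid synthesis there were 5 higher and 2 lower, and 4 higher and 2 lower, with the list median at -0.05 and -0.08. The scaffold and editing genes had 1 higher and 4 lower after the correction, and 3 lower without the array.

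**Figure D4:**
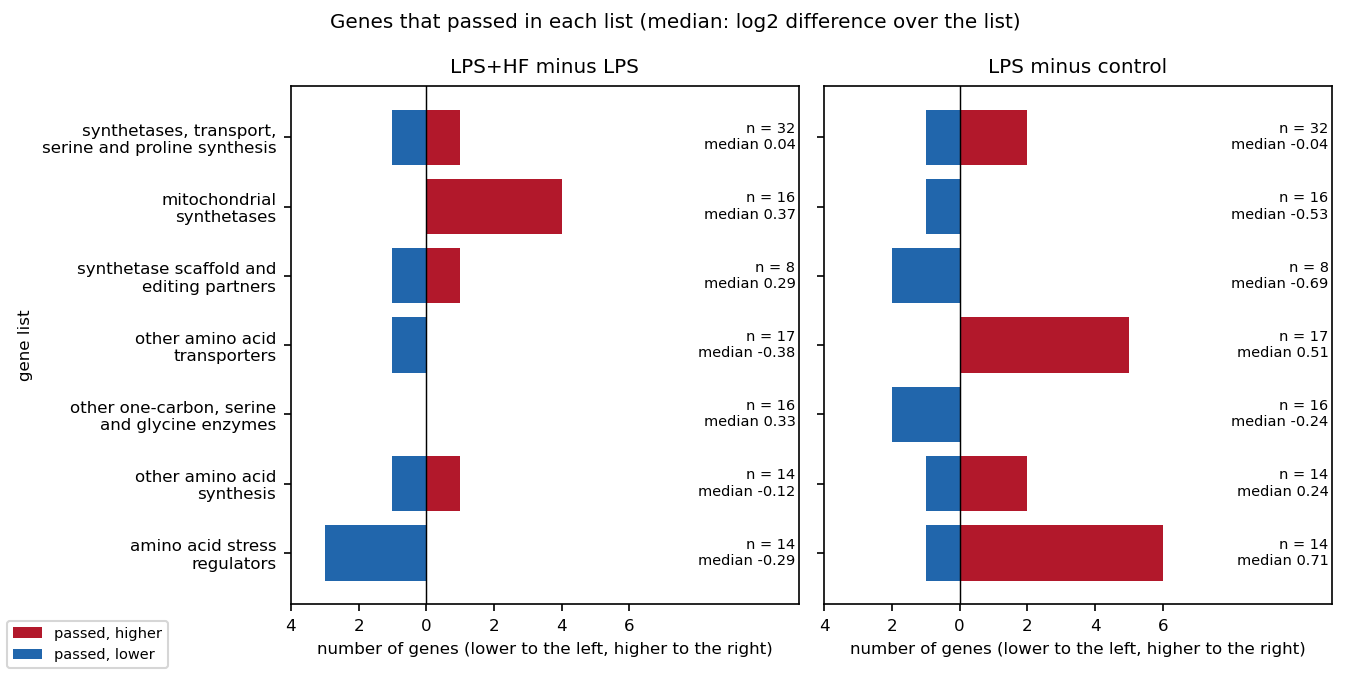
Number of genes with an adjusted p under 0.05 in the 32 genes and in each of the 6 related lists (y axis), lower to the left and higher to the right (x axis), for LPS+HF minus LPS and LPS minus control. Text gives the genes tested (n) and the list's median log2 difference. The regulators had 3 lower on the left and 6 higher on the right, while the 32 genes had 1 on each side on the left.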

How the data were processed

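Total RNA was labelled with Cy3 and hybridised to 1-colour Agilent arrays, 1 per sample. Per the file headers, the scanner files hold a background-subtracted processed intensity for each spot, made by Agilent Feature Extraction 11.5.1.1. The authors also deposited a matrix of log2 values, which equals the values below centred on each probe's median (100% of values within 0.01), with column medians between -0.11 and 0.19. The log2 of the deposited intensity minus each array's 75th percentile was used. Control spots were left out, and repeat spots averaged without those flagged as outliers. A probe with every spot flagged, as with a flagged single spot, kept its value, except in the spatial correction, where flagged spots were dropped. Transcript names were matched to RefSeq symbols for 50.3% of 55681 probes. Probes were kept if some group had them well above background on both its arrays, and the brightest per gene was used, which gave 22460 genes (13802 with a symbol). They were fitted with limma 3.58.1 in R 4.3.3 (lmFit, eBayes, 8 arrays, 4 group means), with 4 residual degrees of freedom, and two-sided p-values were adjusted by Benjamini-Hochberg (threshold 0.05). The ± values are standard errors of the fit. The fit was checked with simulated data that held random noise and no uneven array, so the check does not cover the unevenness of control replicate 1. With 2 arrays per group, the number of arrays limits the precision. Genes that passed were named, other members by range, and up to 4 that passed per related list. The members and lists were chosen with earlier results of these data known. Some genes of the related lists are counted but not reported here by name. Protein and probe sequences were not used here. The alternatives are given in the closing section.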

Additional observations from a re-analysis of the deposited data

How the results depend on the processing

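The counts of genes that passed, of the 32 and of all 22460, moved with the setting more than the differences did. For LPS+HF minus LPS (2 and 1379 on all arrays), they were 0 and 203 with the normexp background correction, 3 and 1079 with quantile normalization, 0 and 199 with median scaling, 2 and 1388 with the authors' matrix, 0 and 170 with no filter on dim probes, 3 and 1558 with a gene's probes averaged, 11 and 6591 after the spatial correction, and 12 and 7390 with only the arrays compared. For LPS minus control (3 and 2487), the same settings gave 1 and 847, 3 and 2257, 1 and 825, 3 and 2488, 1 and 823, 3 and 2671, 12 and 6619, and 0 and 66. For HF minus control (0 and 200), they gave 0 and 10, 0 and 153, 0 and 37, 0 and 194, 0 and 13, 0 and 246, 5 and 2425, and 0 and 0. For LPS+HF minus HF (0 and 287), they gave 0 and 90, 0 and 250, 0 and 155, 0 and 287, 0 and 126, 0 and 329, 4 and 1084, and 1 and 323. For the interaction (0 and 12), they gave 0 and 0, 0 and 5, 0 and 0, 0 and 12, 0 and 0, 0 and 11, and 1 and 767, and the fit on the arrays compared has no interaction. Leaving out 1 array in turn gave 0 to 11 and 0 to 6547 for LPS+HF minus LPS, 0 to 20 and 169 to 11819 for LPS minus control, 0 to 23 and 8 to 10156 for HF minus control, 0 to 3 and 56 to 885 for LPS+HF minus HF, and 0 to 21 and 0 to 7923 for the interaction. The highest counts of the comparisons with control came without control replicate 2, which leaves the uneven replicate 1 as the lone control, assumed to vary like the other groups. Without both arrays marked for evaluation, an alternative chosen after seeing the data, the counts were 12 and 7390, 7 and 4853, 0 and 174, 1 and 453, and 0 and 34 in the order above.

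Replicate numbers did not pair the arrays, as the deviations of same-numbered arrays correlated between -0.08 and 0.25. With a replicate block, the counts were 1 and 586, 1 and 1681, 0 and 46, 0 and 198, and 0 and 0 in the same order. Of 717 alternative values of 40 single-gene differences, 17 had the other direction, 44 lost their call and 91 gained one. Cars in LPS minus control was 0.010 with normexp, 0.040 with quantile normalization, 0.18 with median scaling, 0.40 after the spatial correction, 0.42 without both marked arrays and -0.75 to 0.42 with 1 array left out. Phgdh in LPS minus control was 0.040 with quantile normalization, 0.15 with median scaling and -0.45 to 0.059 with 1 array left out. For HF minus control, Phgdh was 0.20 with median scaling and -0.44 to 0.071 with 1 array left out. Slc7a1 in LPS+HF minus LPS was -0.058 with quantile normalization and -0.13 to 0.13 with 1 array left out. Vars with normexp was 0.19 in LPS minus control and -0.0080 in the interaction, and Slc38a2 in LPS minus control was -0.77 to 0.037 with 1 array left out. The cause of these changes was not tested.

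Median scaling set the median of all genes at 0.08, 0.27, 0.32 and 0.03 in the 4 pairwise comparisons, in the order above, against -0.07, -0.08, -0.07 and -0.08. It turned 4, 9, 9 and 5 of the 32 genes. The share of calls that were higher was 44.2%, 68.8%, 32.4% and 82.6%, against 47.1%, 43.1%, 16.0% and 70.7%. With quantile normalization that share was 29.4% in HF minus control and 0% in the interaction (25% on all arrays), and with normexp 29.6%, 33.3%, 0% and 90%. With the replicate block none of the 16 mitochondrial synthetases passed in LPS+HF minus LPS, and none in LPS minus control. Of the 40 calls in the related lists, all remained after the spatial correction and without either control array, 16 with normexp, 18 with median scaling, 8 without either LPS array and 15 to 17 without any other array. Of the same 40 calls, 14 remained with no filter on dim probes, 19 with only the arrays compared and 24 with the replicate block. With quantile normalization 37 remained, and with a gene's probes averaged 38. Slide and scan as a block were not run, since all arrays shared 1 slide and 1 scan.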
